A study of Mus musculus with 14 samples.

Results

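The comparison described here is of H3K9cr in control kidneys of ACSS2 knockout (KO) and wild-type (WT) mice. Its members were the 2 KO and 2 WT libraries of control kidneys immunoprecipitated for H3K9cr, 4 of the 14 libraries of the series used here. The series set the effect of ACSS2 loss on histone crotonylation in kidney fibrosis, with H3K9cr and H3K9ac mapped by ChIP-seq in control kidneys and after unilateral ureteric obstruction (UUO), a surgical model of fibrosis. The KO mice carried a CRISPR/Cas9 deletion of ACSS2 in the whole body, so the loss was not limited to a cell type of the kidney, and WT mice carried no deletion. The study's methods name C57BL/6J mice, obtained as young adults, without stating the background of the KO mice, and control kidneys came from sham-operated mice. Whole kidney was used, so each library pools tubule, vessel, immune and stromal cells. The deposited files list where peaks start and end without a height, so a region either carried a peak in a library or did not, and its covered length was the only quantity. Read depth is unknown from these lists, and more peaks pass a threshold at a greater depth.

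Crotonylation is an acyl mark on histone lysines that, like acetylation, is found at active promoters and enhancers, and on H3K9 both marks compete for the same residue. ACSS2 makes acyl-CoA from short-chain fatty acids in the cytosol and nucleus and is a source of the crotonyl-CoA and acetyl-CoA used for these marks. In the kidney, the fatty acid oxidation of proximal tubule cells is another source of acyl-CoA.

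The targeted gene was examined first. Acss2 (chr2:155518043-155562743, GRCm38) carried an H3K9cr peak at its 5′ end in all 4 libraries. The peak started before the gene in both KO libraries and just inside it in both WT libraries. The covered length within 3 kb of either end of the gene was 2719 bp in KO replicate 1, 913 bp in KO replicate 2, 1279 bp in WT replicate 1 and 1334 bp in WT replicate 2. The KO values lay on both sides of the WT values, so the groups overlapped. The 5′ peak ran over chr2:155517486-155520204 in KO replicate 1 and over chr2:155518057-155519335 in WT replicate 1. Within the gene, both KO libraries had a peak near chr2:155540863-155541327, the position in KO replicate 2, where neither WT library had any, and all 4 had a peak near chr2:155538873-155539378, the position in WT replicate 1. A peak at the promoter does not test a deletion further into the gene, so these values do not check the genotype. The text of the sources used here does not give the deleted part, and the supplementary schematic of the knockout was not read.

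H3K9cr covered more of the genome in both KO libraries than in either WT library. The covered length was 64.6 Mb in KO replicate 1 and 51.4 Mb in KO replicate 2, against 41.7 Mb and 44.8 Mb in WT replicates 1 and 2. The number of peaks was 45014 and 37456 in KO and 32945 and 36485 in WT. For both measures the groups did not overlap, although KO replicate 2 exceeded WT replicate 2 by few peaks. The KO mean was 58.0 ± 9.34 Mb and the WT mean 43.3 ± 2.13 Mb (SD, n = 2 each), a ratio of 1.34, with p = 0.33 by exact two-sided permutation over the libraries. The ratio of peak numbers was 1.19, and that of the number of genes with a peak within 3 kb of an end was 1.05, with 20051 and 18832 genes in KO and 18196 and 18718 in WT. With 2 libraries against 2 an exact permutation test cannot go below 0.33, and the 9 measures of this kind that were compared all gave that value, also after Benjamini-Hochberg adjustment, so none passes a threshold. The labels do not say whether replicates came from separate mice, and p-values measure the spread between libraries only.

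Further facts of these libraries bear on every comparison below. The labels give the number of the H3K9cr antibody as 539 for both WT libraries and 540 for both KO libraries, which cannot be told apart from genotype. The number goes up by 1 from group to group for both marks in the series, 539 to 542 and 39017 to 39020, so whether different antibodies were used is not known. KO replicate 1 and WT replicate 2 had peaks at all 4 of the Y-linked genes Kdm5d, Ddx3y, Uty and Eif2s3y and none at Xist, the RNA that coats the inactive X chromosome. KO replicate 2 and WT replicate 1 had H3K9cr at Xist, with 2875 bp and 2059 bp covered, and none at those genes. The covered length was 1.44 times as large in KO as in WT within the pair with peaks at Y-linked genes and 1.23 times as large within the pair without. Each genotype thus held a library of each kind, so its 2 libraries did not come from the same mouse. Since both KO libraries covered more than both WT libraries, the direction within the pairs was fixed and only the size could differ.

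The ratio of KO to WT coverage was larger in gene bodies and far from genes than at gene ends. At gene ends, covered length was 33.3 and 28.9 Mb in KO and 24.9 and 26.3 Mb in WT, a ratio of means of 1.21. In gene bodies it was 22.6 and 16.8 Mb in KO and 12.3 and 13.5 Mb in WT, a ratio of 1.53. Far from genes, where no gene lies within 3 kb, it was 8.64 and 5.67 Mb in KO and 4.55 and 4.93 Mb in WT, a ratio of 1.51. In all 3 places both KO libraries lay above both WT libraries (exact permutation p = 0.33). Of the 14.7 Mb by which the KO mean exceeded the WT mean, 5.47 Mb (37.2%) lay at gene ends, 6.82 Mb (46.4%) in gene bodies and 2.42 Mb (16.4%) far from genes. Without KO replicate 1 the difference was 8.10 Mb, with 3.29, 3.88 and 0.934 Mb in these places, so the size rests on that library while gene bodies remained the largest part. As shares of a library's own length, gene ends held 51.6% and 56.3% in KO against 59.7% and 58.8% in WT, so the groups again did not overlap. The share far from genes was 13.4% and 11.0% in KO and 10.9% and 11.0% in WT, a difference in means of 1.26 percentage points that rests on KO replicate 1, since without it the difference was 0.092. KO replicate 2 and WT replicate 2 were nearly equal in this share, and on the autosomes alone the groups overlapped.

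The extra length was spread over the autosomes. On each of the 19 autosomes both KO libraries covered more than both WT libraries, and the ratio of means ran from 1.30 on chromosome 17 to 1.39 on chromosome 12, with a median of 1.34. No autosome therefore held the difference by itself.

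Long peaks carried most of the extra length. Peaks under 500 bp were about as numerous in both genotypes, with means of 8155 in KO and 8046 in WT, and added 0.164 Mb of the difference. Peaks of 2 to 4 kb numbered 7680 and 6009 in KO and 4564 and 5014 in WT, and added 5.70 Mb, or 38.8% of the extra length. Peaks of 8 kb or more numbered 248 and 134 in KO and 82 in each WT library, a ratio of 2.33. The ratio of covered length was larger with each step of peak length, from 1.05 under 500 bp to 1.93 at 4 to 8 kb and 2.44 at 8 kb or more. Peaks of 4 kb or more held 18.3% and 14.7% of the covered length in KO and 11.4% and 10.8% in WT, and the groups did not overlap.

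Peaks of the 4 libraries were merged into 56575 regions wherever they overlapped by at least 1 bp. Of these, 20771 (36.7%) carried a peak in all 4 libraries and held 87.2% of the mean WT length and 78.1% of the mean KO length. These shared regions accounted for 7.56 Mb, or 51.4%, of the extra KO length. Regions with a peak in both KO libraries and in neither WT library accounted for 2.21 Mb (15.0%), and those in both KO libraries and 1 WT library for 2.30 Mb (15.6%). Regions of KO replicate 1 alone accounted for 3.10 Mb (21.1%), against 1.43 Mb (9.71%) for KO replicate 2 alone. Regions of KO replicate 1 alone were thus the largest part after the shared regions.

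Shared regions were wider in KO. The median covered length per shared region was 1878 bp and 1655 bp in KO and 1456 bp and 1509 bp in WT, without overlap between the groups (ratio 1.19, exact permutation p = 0.33). Of the 20771 shared regions, 8583 (41.3%) were longer in both KO libraries than in both WT libraries and 1034 (4.98%) were shorter in both. The difference was also present without joined neighbouring peaks, as among the 14747 shared regions with exactly 1 peak in each library the medians were 1622 and 1464 bp in KO and 1297 and 1337 bp in WT. KO was wider in short and long regions alike, with a median ratio of 1.22 where the mean length was under 1 kb and 1.15 where it was 4 kb or more. Of the extra length in shared regions, 49.0% lay at gene ends, 38.7% in gene bodies and 12.3% far from genes.

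Around 21238 distinct 5′ ends of protein-coding genes, placed by strand, the ratio of KO to WT was larger on the flanks. A gene with several 5′ ends counts once for each. At 200 bp past the 5′ end, 55.2% and 52.9% of these positions were under a peak in KO and 51.6% and 52.6% in WT. At 1 kb past it the values were 31.5% and 27.6% in KO and 24.2% and 25.9% in WT, and at 1 kb before it 22.2% and 20.5% against 16.5% and 17.9%. The ratio of means was 1.04 at 200 bp past the 5′ end, 1.18 and 1.24 at 1 kb after and before it, and 1.35 at 2 kb on both sides. Genotypes did not overlap at any of these positions, and of them the ratio was smallest at 200 bp past the 5′ end.

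Of 49943 annotated genes, 416 (0.833%) had an H3K9cr peak within 3 kb of an end in both KO libraries and in neither WT library, and are called gained here. In the other direction, 88 (0.176%) were lost, with a peak in both WT libraries and in neither KO library. The gained genes comprised 152 protein-coding genes (0.694% of all such genes), 166 lncRNA genes, 61 pseudogenes and 21 miRNA genes, and the lost genes 29 protein-coding genes (0.132%), 40 lncRNA genes and 12 pseudogenes. With the 32945 longest peaks kept in every library, 272 genes were gained and 169 lost, so the excess of gained over lost genes was smaller at equal peak number. The 416 gained genes lay at 294 regions and the 88 lost genes at 62, since neighbouring genes share peaks. Calls rested on short lengths, as the shorter of the 2 KO lengths had a median of 478 bp at the gained genes, and in 64 of the 416 a WT library had a peak elsewhere in the gene. With a window of 1 kb in place of 3 kb, 204 of the 416 and 48 of the 88 were still called. As regions, 2977 (5.26% of the 56575) were gained and 509 (0.900%) lost, and with equal peak numbers 1661 and 825.

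The 12 protein-coding gained genes with the largest covered length at their ends, by the shorter of the 2 KO values, were the following. At Avpr2 (chrX:73891765-73894428), the vasopressin receptor of the collecting duct, the covered length was 1262 and 1260 bp in KO and 0 bp in both WT libraries. At Msmp (chr4:43583216-43584494), a secreted microseminoprotein, it was 2544 and 1694 bp in KO. At Rhpn1 (chr15:75704246-75714419), a gene of podocytes, it was 1713 and 1661 bp, and H3K9ac was present in both genotypes, with 1783 bp in KO and 1835 bp in WT. All of these had no H3K9cr peak in WT, which is what the call requires. Kit (chr5:75574987-75656722), a receptor tyrosine kinase, had 1658 and 1107 bp in KO, and Clu (chr14:65968483-65981548), the secreted chaperone clusterin, 1164 and 1046 bp. The cytokine gene Il9 (chr13:56479277-56482257) had 1429 and 1233 bp, more than 1 kb outside the gene in both KO libraries, as was the peak of Msmp in KO replicate 2. The adjacent amine oxidase genes Aoc2 and Aoc3, with 1119 bp each in KO replicate 1, share peaks and are not separate observations. Dab2ip, a Ras GTPase-activating protein, gained a peak at an end, with 2255 and 1234 bp in KO, and was covered within the gene in all 4 libraries. Hr, Unc13d and the unnamed gene Gm13547 completed the 12, with a shorter KO length of 1204, 1088 and 1227 bp.

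Lost genes had less covered length. Casp12 (chr9:5345442-5373034), a caspase linked to stress of the endoplasmic reticulum, had 1002 and 886 bp in WT and 0 bp in both KO libraries. Oas1a (chr5:120896256-120907544), an interferon-induced sensor of double-stranded RNA, had 1007 and 735 bp in WT, and Lrrc4 (chr6:28828126-28831747), a synaptic adhesion protein, 977 and 552 bp. Cnr1, the cannabinoid receptor, had 490 and 573 bp in WT. Sox9 (chr11:112782210-112787757), a transcription factor of tubule repair, had 439 and 723 bp in WT and none in KO, although the control library of H3K9ac had 1208 bp in peaks at its ends in KO and none in WT. At Lama2, a laminin chain, and Shcbp1 the loss was limited to the gene ends, as both KO libraries had a peak within the gene. The other genes of the 12 were 4921504E06Rik, Vgf, B3galt1, Rln1 and Tmem45a, with a shorter WT length between 447 bp at Tmem45a and 749 bp at 4921504E06Rik.

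Promoter sequences of 300 bases, 250 before to 50 after the start, were taken from RefSeq (GRCm38.p6) for genes of these lists whose promoter itself was gained or lost. Of 32851 promoters, 337 (1.03%) were gained and 58 (0.177%) lost. Gained promoters had a median GC content of 55.3% and a median of 9 CpG, lost promoters 54.2% and 7.5, promoters with a peak in all 4 libraries 61.7% and 22, and all promoters 52.7% and 7. Gained and lost promoters thus lay nearer to all promoters than to those with H3K9cr in every library. The following 3 gained promoters show this range, with CpG in capitals, since Avpr2 has 1 CpG, Kit 20 and Cdkn2a 45 in the 300 bases.
Avpr2, chrX:73891852-73892151, plus strand: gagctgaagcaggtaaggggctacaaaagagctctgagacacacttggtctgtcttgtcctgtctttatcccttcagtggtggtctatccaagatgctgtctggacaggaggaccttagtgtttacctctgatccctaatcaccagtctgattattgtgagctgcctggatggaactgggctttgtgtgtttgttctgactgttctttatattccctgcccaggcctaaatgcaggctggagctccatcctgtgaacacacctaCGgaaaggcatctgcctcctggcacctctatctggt
Kit, chr5:75574737-75575036, plus strand: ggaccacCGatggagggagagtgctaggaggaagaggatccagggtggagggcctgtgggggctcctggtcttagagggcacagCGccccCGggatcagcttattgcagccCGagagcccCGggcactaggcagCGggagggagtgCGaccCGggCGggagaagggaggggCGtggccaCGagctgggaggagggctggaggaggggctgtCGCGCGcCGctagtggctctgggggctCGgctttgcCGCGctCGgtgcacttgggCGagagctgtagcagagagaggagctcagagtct
Cdkn2a, chr4:89294570-89294869, minus strand: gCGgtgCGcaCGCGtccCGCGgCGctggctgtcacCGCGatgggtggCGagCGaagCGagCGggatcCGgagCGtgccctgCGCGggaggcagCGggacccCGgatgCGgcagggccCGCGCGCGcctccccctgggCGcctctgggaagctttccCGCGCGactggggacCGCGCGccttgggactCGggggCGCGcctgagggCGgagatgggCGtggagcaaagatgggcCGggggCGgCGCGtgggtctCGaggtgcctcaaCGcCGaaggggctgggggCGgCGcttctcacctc

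Exact motifs were searched on both strands of every promoter. The share of gained, lost and all promoters with a match was 7.42%, 1.72% and 7.81% for AP-1 (TGANTCA), 6.53%, 12.1% and 8.30% for STAT (TTCNNNGAA) and 1.48%, 8.62% and 3.44% for IRF. For ETS (CCGGAAGT) it was 2.97% of gained and 3.89% of all promoters, with no match among the lost ones. CREB (TGACGTCA) was found in 2.08% of gained, 1.72% of lost and 1.79% of all promoters. HNF4 (CAAAGTCCA) was found in 0.593% of gained and 0.475% of all promoters, and NRF1 in 0.593% and 0.971%. HNF1 matched 3 promoters in all and none that was gained or lost. The lost shares rest on few promoters, with 7 matches for STAT and 5 for IRF among 58. Casp12 and Oas1a are shown because their lost promoters hold such matches, in capitals, STAT in both and IRF in Oas1a, where 2 IRF matches overlap.
Casp12, chr9:5345226-5345525, plus strand: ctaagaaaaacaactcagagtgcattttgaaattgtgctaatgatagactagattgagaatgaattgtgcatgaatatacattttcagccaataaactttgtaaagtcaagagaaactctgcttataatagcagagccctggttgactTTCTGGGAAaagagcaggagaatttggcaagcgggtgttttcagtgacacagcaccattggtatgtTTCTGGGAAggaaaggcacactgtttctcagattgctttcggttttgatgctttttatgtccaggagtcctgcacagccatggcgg
Oas1a, chr5:120907476-120907775, minus strand: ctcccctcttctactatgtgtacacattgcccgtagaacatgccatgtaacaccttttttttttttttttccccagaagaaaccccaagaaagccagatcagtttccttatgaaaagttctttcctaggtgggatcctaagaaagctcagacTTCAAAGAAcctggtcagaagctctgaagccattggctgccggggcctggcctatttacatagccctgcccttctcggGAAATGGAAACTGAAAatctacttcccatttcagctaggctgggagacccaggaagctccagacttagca

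Regions gained in KO lay mostly within genes. Of the 2977, 28.4% touched a gene end, 52.6% lay in a gene body and 19.0% far from genes, against 66.6%, 23.3% and 10.1% of the 20771 shared regions. The 509 lost regions were placed much like the gained ones, with 31.2%, 45.2% and 23.6%. Regions of a single KO library were also alike, with 26.6%, 52.7% and 20.7%. The median distance to the nearest shared region was 7.94 kb for gained and 13.4 kb for lost regions, and 24.2% and 22.4% lay within 2 kb of one.

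The gained region longest by the shorter of the 2 KO lengths lay in Ankrd33b (chr15:31341976-31345963), with 2761 and 3125 bp in KO. A region in Klf15 (chr6:90475345-90478264), a transcription factor of metabolism, had 2865 and 2663 bp, and one in Slc47a1 (chr11:61367079-61370872), an exporter of organic cations in the proximal tubule, 3166 and 2626 bp. None of these had a peak in either WT H3K9cr library. The others of the 6 lay at Pcsk4, in Unc119b and 29.9 kb from Irs2, the insulin receptor substrate. Among lost regions, the longest by the shorter of the 2 WT lengths lay in Ablim3 (chr18:61893907-61895980), with 1445 and 1581 bp in WT, followed by regions in Fam214a, Cux1 and Stk39, a region 3.59 kb from Ccl9 and a region at Dao. The lost regions were shorter, since 183 of the gained (6.15%) but 2 of the lost regions had at least 1 kb in both libraries. Exon positions were not used here.

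Covered length over the whole gene with 3 kb either side was compared for the 13201 protein-coding genes with a peak in all 4 libraries. In 46.7% both KO libraries had more than both WT libraries, and in 3.76% both had less. The median of all these genes was 0.27 on the log2 scale of KO over WT. Divided by the covered length of its library, the median was -0.15, and the shares became 10.7% with more and 33.5% with less, so the direction for many genes depends on this scaling and is read below against these medians.

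The largest gaps were at long genes with many peaks. Msi2 (chr11:88339382-88718306), an RNA-binding protein, had 70018 and 69536 bp in KO and 39467 and 42151 bp in WT, a ratio of 1.71, or 1.29 after scaling. Igf1r (chr7:67952257-68233668), the receptor of insulin-like growth factor, had 76697 and 60251 bp against 42411 and 44016 bp. Snx29 had 61447 and 48733 bp against 34133 and 28592 bp, a ratio of 1.76, or 1.30 after scaling. The groups did not overlap at any of these, as the choice required. Zmiz1, Itpr1, Shb and Cgnl1 were also among the 8, with ratios of 1.43, 1.47, 1.36 and 1.67. After scaling these ratios were 1.08, 1.11, 1.03 and 1.25. Tns1, a focal adhesion protein, had 122029 and 115776 bp against 93865 and 94976 bp, and its ratio of 1.26 became 0.948 after scaling.

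Genes with less coverage in KO included the water channel of the collecting duct. At Aqp2 (chr15:99579056-99584545) covered length was 1542 and 1471 bp in KO and 2555 and 3630 bp in WT, a ratio of 0.487, or 0.369 after scaling. Nfil3 (chr13:52967209-52982878), a transcriptional repressor, had 4552 and 4523 bp in KO and 7147 and 6400 bp in WT. Both KO libraries lay below both WT libraries at these genes, with and without scaling. Slc25a29, a mitochondrial carrier, had 2362 and 2599 bp against 3651 and 3721 bp, and Ablim3 and Snap23 had ratios of 0.552 and 0.586.

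Marker genes of tubules and vessels mostly carried H3K9cr, and those of leukocytes, adrenal and fat mostly did not. Of 42 proximal tubule genes, 40, 38, 36 and 40 had a peak at a gene end in KO replicates 1 and 2 and WT replicates 1 and 2. Of 19 endothelial genes, 18, 17, 15 and 18 had one, and of 29 fibroblast and matrix genes 22, 15, 16 and 18. Of 24 macrophage and neutrophil genes, 7, 7, 6 and 6 had one, with Spi1 the most covered and none at Adgre1, Itgam, Lyz2 or Ptprc in any library. Of 8 adrenal genes at most 1 had a peak at an end in any of the 4 libraries, and of 8 genes of perirenal fat at most 3. Podocyte genes were covered in part, with no peak at Nphs1. The summed covered length of the 24 leukocyte genes was 20.1 and 11.5 kb in KO and 7.84 and 11.1 kb in WT, and that of the 19 endothelial genes 93.4 and 57.5 kb against 40.4 and 66.4 kb, so that groups overlapped for the endothelial genes, and for the leukocyte genes did so once divided by the covered length of the library. A change in the number of cells of a type and a change of the mark per cell cannot be told apart in whole kidney.

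No proximal tubule gene was gained or lost among the 42. Of the 39 with a peak in all 4 libraries, 19 had more covered length in both KO libraries and none less. That is 48.7%, near the 46.7% of all genes. After scaling 9 had more and 6 less, against 10.7% and 33.5% of all genes. The median of the 39 was 0.51 on the log2 scale, against 0.27 for all genes, and 0.072 after scaling against -0.15. Slc13a3, a dicarboxylate transporter, had 18675 and 13366 bp in KO and 9932 and 5907 bp in WT, and Slc9a3, the apical sodium-hydrogen exchanger, 21440 and 13949 bp against 10006 and 9458 bp. At both genes the groups did not overlap, with or without scaling. Other members had a ratio below 1, such as Ambp with 0.713 and Cyp4b1 with 0.936, with overlap between the groups. Kap and Slc7a13, also on this list, were longer in the libraries with peaks at Y-linked genes, with 4620 and 0 bp of Kap in KO replicates 1 and 2 and 586 and 3464 bp in WT, so the genotypes overlapped.

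Genes of the distal nephron and collecting duct differed in both directions. Of 32, 2 were gained, Avpr2 and the sodium channel subunit Scnn1b (chr7:121865038-121918728), with 544 and 872 bp at its ends in KO and 0 bp in WT, although WT replicate 2 had 664 bp within the gene. That is 6.25% of the list against 0.833% of all genes. Of the 19 with a peak in all 4 libraries, 12 (63.2%) had more length in both KO libraries and 1, Aqp2, had less, against 46.7% and 3.76% of all genes. The median was 0.30, near that of all genes, and after scaling 3 had more and 6 less, against 10.7% and 33.5% of all genes.

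Genes of acyl-CoA supply carried H3K9cr in every library. All 24 genes of fatty acid oxidation and crotonyl-CoA and all 22 of sterol and fatty acid synthesis had a peak at an end in each of the 4 libraries, so none could be gained or lost. Ppargc1a, the coactivator of mitochondrial genes, had 36750 and 26262 bp in KO and 17227 and 16124 bp in WT. Hadha, a subunit of the trifunctional protein of beta-oxidation, had 3228 and 4213 bp in KO and 4961 and 3861 bp in WT, with overlap between the groups. Of the 24, 13 (54.2%) had more length in both KO libraries, against 46.7% of all genes, with a median of 0.29 against 0.27. After scaling 2 had more and 10 less, where all genes had 10.7% and 33.5%. Of the 22 synthesis genes 13 (59.1%) had more, against 46.7% of all genes, with a median of 0.45, and after scaling 3 had more and 3 less. Acly, which makes acetyl-CoA from citrate, was in the list of histone acylation writers, erasers and readers, and had 4526 and 5049 bp in KO and 1908 and 2172 bp in WT.

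Of the 40 acylation genes with a peak in all 4 libraries, 21 (52.5%) had more covered length in both KO libraries and 3 had less, against 46.7% and 3.76% of all genes. After scaling 5 had more and 16 less, against 10.7% and 33.5% of all genes. The median was 0.31, near the 0.27 of all genes. Among the erasers, Hdac6 had 1738 and 1802 bp in KO and 326 and 391 bp in WT, while Hdac8 had 578 and 624 bp against 1059 and 839 bp. Sirt3, a mitochondrial deacylase, had 2857 and 2739 bp in KO and 3519 and 3592 bp in WT. Among the readers, Mllt1 had 821 and 835 bp against 1184 and 1286 bp. At these 4 genes the groups did not overlap, in either direction, with or without scaling.

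Genes of the IL-1 family did not differ between the genotypes in presence. Il1b (chr2:129364569-129371164) had no peak in any of the 4 libraries or in either control library of H3K9ac. Il1r1 (chr1:40222480-40316201), the receptor, had 1218 and 1132 bp at its ends in KO and 419 and 1015 bp in WT. The KO values of Il1r1 lay above both WT values at the gene ends, whereas over the whole gene the 4 values overlapped, with 5421 and 2836 bp in KO and 2180 and 3152 bp in WT. Of 23 genes of the family and the inflammasome, 11 and 9 had a peak in KO and 9 and 10 in WT, and none was gained or lost. Among other cytokines and receptors, Csf3 was gained (chr11:98700183-98703631), with 1093 and 676 bp in KO, as 1 of 30 (3.33%, against 0.833% of all genes).

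Of 18 genes of tubule injury and repair, Clu and Vcam1 were gained (11.1%, against 0.833% of all genes) and Sox9 was lost (5.56%, against 0.176%). Of the 11 with a peak in all 4 libraries, 4 (36.4%) had more length in both KO libraries, against 46.7% of all genes. Their median was 0.23, against 0.27, and after scaling 2 had more and 3 less, against 10.7% and 33.5% of all genes. Vcam1 (chr3:116110020-116129688), an adhesion molecule, had 1361 and 625 bp in KO and 0 bp in WT. Havcr1, the injury marker KIM-1, had no peak in any of the 4 libraries. Cdkn2a (chr4:89274473-89294619), an inhibitor of the cell cycle, was gained with 1029 and 360 bp, the latter close to the shortest listed peak of KO replicate 2, 351 bp. The neighbouring Cdkn2b had 1742 and 943 bp in KO and 362 and 405 bp in WT. Cdkn1c (chr7:143458339-143461059), an inhibitor found in podocytes, was gained with 942 and 1314 bp. They were the only gained genes among 17 of senescence (5.88%) and 14 of podocytes (7.14%), against 0.833% of all genes. Of the 16 senescence genes with a peak in all 4 libraries, 11 (68.8%) had more length in both KO libraries, against 46.7% of all genes, with a median of 0.28 against 0.27. After scaling 2 had more and 4 less, against 10.7% and 33.5% of all genes. None of the lists of endothelial, fibroblast and matrix, leukocyte, lymphocyte, fat, adrenal, red cell, liver or neuron genes had a gained or lost member.

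The libraries that the calls did not use were then examined at the same regions. In control kidneys, the KO library of H3K9ac had a peak in 33.8% of the 2977 gained regions and the WT library in 12.4%, while over all 56575 regions they had a peak in 44.8% and 35.1%. At the 509 lost regions the values were 22.0% in KO and 18.1% in WT. Of the gained regions, 727 carried H3K9ac in KO alone and 88 in WT alone. Avpr2, on the X chromosome, Cdkn1c and Csf3 had H3K9ac at their ends in KO, with 2189, 1784 and 2574 bp covered, and none in WT. Other named gained genes had it in both genotypes. Kit, Clu and Hr had more in KO, whereas Rhpn1 and Vcam1 had less, with 510 bp in KO and 714 bp in WT at Vcam1. The control H3K9ac libraries are 1 per genotype, with 32760 peaks in KO and 25585 in WT. The KO library has an Xist peak and the WT library peaks at Y-linked genes. By the study's account H3K9ac was mapped in the samples used for H3K9cr. After UUO, however, the Xist and Y-linked peaks of the H3K9ac and H3K9cr libraries with the same number differ in 3 of 4. Genotype, the number of peaks and sex thus cannot be told apart here.

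After UUO the gained regions did not carry more H3K9cr in KO than in WT. A peak was present in 761 and 438 of the 2977 in KO and in 892 and 597 in WT, with overlap between the groups. For H3K9cr after UUO, replicate 1 of both genotypes had peaks at Y-linked genes and replicate 2 had not, and KO was lower within both of these pairs. Of H3K9ac after UUO, 4.27% and 12.5% of the gained regions had a peak in KO and 3.46% and 6.18% in WT, again with overlap. The KO library at 12.5% (replicate 2) was the only H3K9ac library after UUO with peaks at Y-linked genes, and the other 3 had Xist. Over all 56575 regions the shares after UUO were 44.0% and 37.5% in KO and 46.2% and 39.6% in WT for H3K9cr, and 23.9% and 32.0% against 22.8% and 25.3% for H3K9ac. By the same call, 146 genes (0.292%) were gained and 358 (0.717%) lost in KO after UUO, from libraries that the control comparison does not share. Of the 416 genes gained in control kidneys, 8 (1.92%) were also gained after UUO, which is 5.48% of those gained there, and 19 were lost there. Of the 88 lost genes 4 (4.55%) were lost in both, among them Cnr1 and Rln1, which is 1.12% of those lost after UUO. Avpr2 had no H3K9cr peak at its ends in any of the 4 UUO libraries, and Casp12 had one in all 4.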

How the data were processed

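H3K9cr ChIP-seq of control kidneys was compared between 2 KO and 2 WT libraries, with replicates numbered by the labels. Per the study's methods, the authors removed low-quality reads, aligned with Bowtie2 (submitters' processing notes), discarded organelle, poorly mapped and duplicate reads and called peaks with MACS2 in each library. The deposited values are peak positions on mm10, per the submitters' processing notes. ChIPseeker was used for annotation. Versions of these tools are not given in the sources used here, nor is the input used in peak calling.

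Genes came from RefSeq (GRCm38.p6), 49943 on the autosomes, X and Y, with 54 elsewhere left out. Overlap of at least 1 bp was counted. A gene end was 3 kb either side of either end, without strand. Strand for 5′ ends and promoters came from the RefSeq promoter table. Sequence outside promoters was not used here, so the sequence of gained and lost regions was not analysed and motifs were searched in promoters.

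The members and the lists of genes were chosen with earlier results of these data known. Of 400 listed genes 398 were matched by symbol or synonym. Named were Acss2, Il1b and Il1r1, the 12 protein-coding genes gained and the 12 lost by the longer minimum length, the 8 and 5 with the largest gap in covered length, list members gained or lost, and 6 regions in each direction. Other list members, and Kap, Slc7a13, Xist and the Y-linked genes, were named after their values were seen. Python 3.11.15, numpy 2.4.6, pandas 2.3.3 and statsmodels 0.14.6 were used, and overlaps were equal to those of bedtools 2.31.1. In simulated lists, 199 of 200 gained and 100 of 100 lost genes were recovered, and the inserted peak of the missed gene lay in a window cleared for a neighbouring lost gene. The 2 simulated lists of a genotype were identical. The simulation thus checked the code and not how well calls recover genes when replicates differ.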

Additional observations from a re-analysis of the deposited data

Results flagged for a closer look

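The median peak length of H3K9cr libraries differed between the genotypes in opposite directions in control kidneys and after UUO. In control kidneys it was 1017 and 1001 bp in KO and 950 and 887 bp in WT, a difference in means of 90.5 bp. After UUO it was 812 and 827 bp in KO and 889 and 883.5 bp in WT, a difference of -66.75 bp. Every KO library lay above every WT library in control kidneys and below every WT library after UUO. The difference between the conditions was not tested. The number of peaks and the covered length had opposite signs of the mean difference as well, at -1986 peaks and -5.22 Mb after UUO, but the libraries overlapped there. Within the pair with peaks at Y-linked genes (replicate 1) and the pair without (replicate 2), KO was lower than WT after UUO in both measures.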

How the results depend on the processing

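Of 126 values under other settings, 86 met the rule for their kind of value and 40 moved, nearly all of them counts of genes or regions. Counts could change by 1.5 times, ratios and the far share had only to keep their direction, and other shares to stay within the SD between libraries or pairs of them, or within a binomial interval for H3K9ac in control kidneys, or only to keep direction where divided by the share of all regions. The binomial interval treats regions as independent draws and does not measure the spread between libraries. The far share kept its direction but not its size, and its groups overlapped at equal peak number and on the autosomes. The ratios of peak number, covered length, gene number and median shared length kept KO above WT throughout. In these measures and the far share, both KO libraries as reported lay above both WT libraries. Leaving out a library, taking a pair or the replicate block thus could not reverse them. Only settings that changed the peaks, regions or genes used could have done so. Without each library in turn, the ratios ran over 1.08 to 1.30, 1.19 to 1.49, 1.02 to 1.09 and 1.12 to 1.27. The share far from genes ran over 0.092 to 2.43 percentage points.

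Counts depended on the peaks and libraries used, and the cause was not tested. Genes gained and lost were 152 and 29 for protein-coding genes, 272 and 169 at equal peak number, 56 lost with peaks of at least 500 bp, and, chosen after seeing the data, 204 and 43 with the 5′ end only, 1907 and 574 within the pair of libraries with peaks at Y-linked genes and 1427 and 791 within the pair without. Without each library in turn, 764 to 1379 genes were gained and 166 to 416 lost, since fewer libraries had to be met. Regions gained and lost were 1661 and 825 at equal peak number, 1472 and 207 in the longest 50%, 269 lost with peaks of at least 500 bp, and 17334 and 5794, and 12639 and 6841, within the 2 pairs. Without each library, 4522 to 14274 were gained and 816 to 4712 lost. Which genes were called changed too: of the 416, 204 were also gained with a window of 1 kb, 222 at equal peak number, 214 with peaks of at least 500 bp and 56 in the longest 50%, where 459 were gained. Of the 88 lost genes, 48 were lost with 1 kb and 2 in the longest 50%.

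The share of extra length in shared regions was 61.5% at equal peak number, and 49.3% to 57.1% without each library. With the gained regions called at equal H3K9cr peak number, the difference in H3K9ac at them was 23.6 percentage points, against 21.5. The control H3K9ac libraries, with 32760 peaks in KO and 25585 in WT, lay below the number kept and were not made equal. Protein-coding genes with more length in both KO libraries were 6160, and 1411 after scaling, and those with less 497 and 4417, so scaling turned which side was larger, and the median log2 of 0.27 became -0.15. Without each library in turn, the extra covered length was 8.10 to 21.3 Mb, with 45.8% to 47.9% in gene bodies. Scaling, and leaving out each library for the extra length, were chosen after seeing the data.

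Between libraries with the same replicate number, deviations from the group mean had a correlation of -0.034 across 20771 shared regions. With 2 libraries per genotype, this does not show whether equal numbers shared a batch. With the replicate block, the ratio was 1.18 for peak number, 1.33 for covered length, 1.05 for genes and 1.19 for shared length. The far share differed by 1.26 percentage points. Each of these had an exact sign-flip p = 0.50, the smallest possible with 2 pairs. Calls of genes and regions do not use replicate numbers, so their counts were carried over and could not change. These counts are included above among the values that met their rule. Read depth is unknown, so its part in these differences was not tested.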

Other observations

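Whether control H3K9cr libraries shared more of their length within than between genotypes depends on the measure. The Jaccard index, the shared length over the joint length, was 0.568 for the 2 KO libraries, 0.587 for the 2 WT libraries and 0.521 to 0.550 for a KO with a WT library. Unequal lengths limit the index, to 0.795 for the KO pair, 0.933 for the WT pair, 0.647 and 0.693 for KO replicate 1 with WT replicates 1 and 2, and 0.813 and 0.872 for KO replicate 2 with them. WT replicate 1 lay within KO replicate 1 to 87.3% of its length and within WT replicate 2 to 76.7%.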
